A study of Mus musculus with 8 samples.

Results

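MiR-218 was measured in whole kidneys of Akita mice and of control mice through its 3 annotated arms, listed on the array as mmu-miR-218-5p, mmu-miR-218-1-3p and mmu-miR-218-2-3p, with the prefix of the species left off from here on. MiR-218-5p is the guide arm. The members were chosen by name from the 1881 mouse miRNAs on the array, with the lower signal of miR-218-5p in Akita kidneys already known, so its values are given as a description with no test. The Akita kidneys came from male C57BL/6-Ins2Akita/J mice, a strain that becomes diabetic because its mutant Ins2 allele yields an insulin precursor that folds wrongly in beta cells. The control kidneys came from male C57BL/6J mice and are called Mock in the sample titles. Each group had 4 samples with 1 array each, and the age of all 8 was labelled 36 without a unit. Whether the samples stem from separate mice is not stated, so the spread and the p-values given cover only these samples, which may be technical repeats. Total RNA was taken from the whole organ, in which fewer cells of a type and less RNA per cell cannot be told apart.

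Animal genomes carry miR-218 inside introns of Slit genes. Slit2 and Slit3 encode secreted ligands of the Robo receptors, which guide axons and vessel sprouts, and Slit2 with its receptor Robo2 limits where the ureteric bud grows out in the developing kidney. MiR-218 itself represses Robo1 and Robo2 in endothelial cells, and in the mouse it is best known as a miRNA of motor neurons. A miRNA hairpin is cut into a 5p and a 3p arm, of which 1 is usually kept as the guide strand and the other is mostly lost. The first bases of the guide, from the second to the eighth, form the seed that pairs with target mRNAs.

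The 2 hairpins are shown because they explain what an array can and cannot separate. They are taken from RefSeq (GRCm38.p6, 5′ to 3′), with the annotated mature arms in capitals. Mir218-1 lies within Slit2 at chr5:48223942-48224051 on the plus strand and Mir218-2 within Slit3 at chr11:35616816-35616925 on the plus strand.
Mir218-1: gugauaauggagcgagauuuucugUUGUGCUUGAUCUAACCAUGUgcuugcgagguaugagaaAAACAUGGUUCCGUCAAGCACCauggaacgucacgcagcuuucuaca
Mir218-2: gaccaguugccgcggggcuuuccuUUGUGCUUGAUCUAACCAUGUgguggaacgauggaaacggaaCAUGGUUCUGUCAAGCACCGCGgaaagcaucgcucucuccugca
Both hairpins are 110 bases long and hold the same 21-base 5p arm at bases 25 to 45. Over their whole length they matched at 81 of 115 aligned columns (70.4%), and they differ only outside that arm. The 3p arms, each 22 bases, begin at base 64 in Mir218-1 and at base 67 in Mir218-2.

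The mature arms follow, with the seed in capitals.
miR-218-5p: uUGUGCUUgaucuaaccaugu
miR-218-1-3p: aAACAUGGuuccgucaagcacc
miR-218-2-3p: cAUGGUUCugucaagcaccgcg
The 5p arm carries 1 sequence for 2 loci, so a signal for miR-218-5p is the sum over Slit2 and Slit3. The 3p arms shared 18 of 19 aligned bases, with the substitution C12U (positions counted from 1 at the 5′ end of miR-218-1-3p), and they start 3 bases apart, which gives them different seeds. Only these 3p arms could tell the loci apart. Among the 1679 distinct mature sequences in the RefSeq table, miR-7002-3p has the seed of miR-218-5p and miR-496b that of miR-218-1-3p. Both are on the array, and both were above background on 0 of 8 arrays.

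The array reads miR-218-5p with 2 probes of 15 spots each, and each 3p arm with 4 probes that together have 30 spots. The longest probe of each arm is printed 5′ to 3′ as the array files give it.
miR-218-5p probe: acatggttagatcaagcaca
miR-218-1-3p probe: ggtgcttgacggaacc
miR-218-2-3p probe: cgcggtgcttgaca
The 5p probes pair with bases 2 to 21 and 3 to 21 of the miRNA and are mapped by the array annotation (mm9) to both loci, the longer one to chr5:48615206-48615225 and to chr11:35430343-35430362. The 3p probes are shorter, 13 to 16 bases for miR-218-1-3p and 11 to 14 bases for miR-218-2-3p. Their annotated positions are chr5:48615251-48615265 and chr11:35430393-35430405 for the longest ones. No probe matched a RefSeq mature sequence other than its own in full. Each probe of miR-218-1-3p could nevertheless pair with a run of 10 bases in miR-218-2-3p, and those of miR-218-2-3p with 8 to 10 bases in miR-218-1-3p.

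Of the 3 arms, miR-218-5p alone was above background. This was called per array, and required 1 probe or more of the arm with a share of at least 0.5 of its spots marked well above background by the scanner software. MiR-218-5p reached this on 8 of 8 arrays with all 238 usable spots marked, 120 on the Akita arrays and 118 on the control arrays. MiR-218-1-3p had 0 marked spots of 221 and miR-218-2-3p had 0 of 222. A spot of miR-218-1-3p on control array 1 that was left out as an outlier read 21.9 and was marked. The comparison over all miRNAs kept the 285 of 1881 that were above background on every array of 1 group or of both, and 1 of the 3 arms passed this filter.

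Before any scaling, the 2 probes of miR-218-5p summed to spot intensities of 179, 138, 177 and 140 in Akita kidneys 1 to 4, against 267, 302, 291 and 319 in control kidneys 1 to 4. Every Akita array lay below every control array. Unscaled, the groups were apart at the level of single spots too, with no correction for brightness differences between arrays. Spots of the longer probe ran from 68.4 to 118 in Akita kidneys and from 141 to 205 in control kidneys, and those of the shorter probe from 46.0 to 93.1 in Akita kidneys and from 103 to 151 in control kidneys. Spots of 1 probe on 1 array varied with a coefficient of variation between 3.48% and 11.2%. These spots are repeats on an array and measure the technical error, not that between kidneys.

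**Figure D1:**
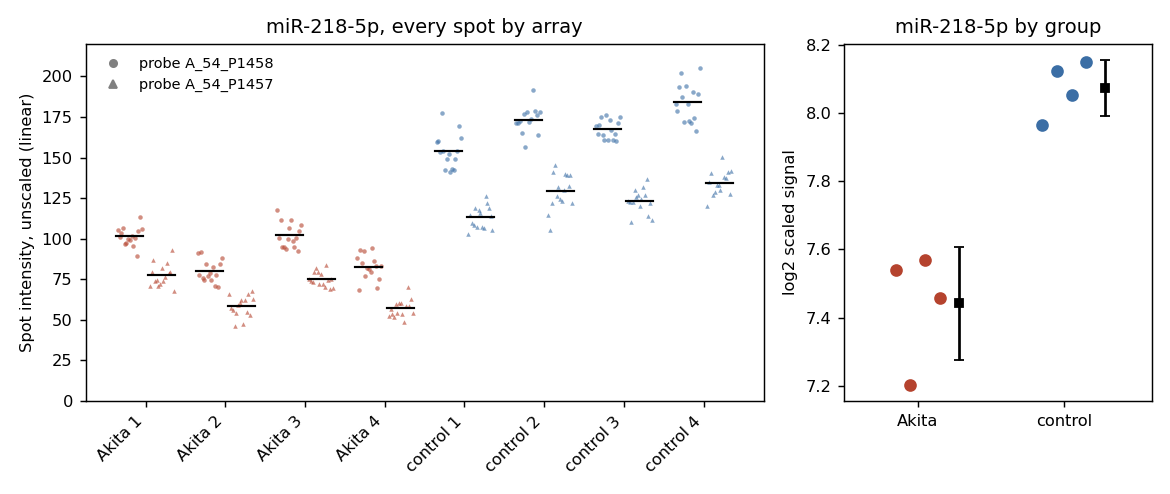
Left, intensity of every usable spot of the 2 miR-218-5p probes on each array, unscaled and linear, with a black bar at the probe's mean; Akita in red, control in blue. Right, log2 scaled signal of miR-218-5p per array with the mean ± SD of each group (n = 4 each); the Akita values run from 7.20 to 7.57 and the control values from 7.97 to 8.15.

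The Akita arrays were also dimmer as a whole. The 75th percentile of the 451 probes above background on all 8 arrays was 421 ± 35.2 on Akita arrays and 507 ± 10.3 on control arrays (SD, n = 4 each). Each array was therefore divided by its own percentile and brought back to the common mean, the probes of a miRNA were summed, and log2 was taken. On this log2 scale miR-218-5p stood at 7.54, 7.20, 7.57 and 7.46 in Akita kidneys, against 7.97, 8.12, 8.05 and 8.15 in control kidneys. Akita kidney 2 was the lowest of all, and the gap of 0.40 between the highest Akita and the lowest control value was wider than the range of 0.37 among the Akita kidneys or of 0.19 among the control kidneys. The gap was wider than both ranges in 9 of 14 other ways of computing the levels. Among the 9 are the changed floors for dim signals, which leave the values of miR-218-5p as they are. It was narrower than 1 of them or both with the percentile over all probes (gap 0.09), normexp (0.20), median scaling (0.23), quantile normalization (0.33) and the authors' deposited value table (0.34).

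The means were 7.44 ± 0.17 in Akita kidneys and 8.07 ± 0.08 in control kidneys (SD, n = 4 each). The log2 difference, Akita minus control, was -0.63 ± 0.09 (SE from the limma fit over all 285 miRNAs), which makes the Akita level 35.4% lower (1.55-fold lower). Of the 285 miRNAs, 5 had a more negative difference, and the median difference of all was 0.06. In that comparison 42 of 285 miRNAs (14.7%) passed an adjusted p of 0.05 (limma) and are referred to as called. In Akita kidneys 24 (8.42%) were higher and 18 (6.32%) lower. The groups did not overlap for 65 miRNAs (22.8%), of which 26 (9.12% of all) had every Akita value below every control value, and the difference was below 0 for 118 (41.4%). MiR-218-5p belongs to these lower sets, and since it was picked for its fall, nothing is read from that.

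Both probes gave a like difference, -0.63 for the longer and -0.64 for the shorter one. The probes overlap in sequence and share the arrays, so they are no independent measurements. Under the 26 other ways of processing that were tried, the difference of miR-218-5p stayed negative, between -0.90 without scaling and -0.33 with normexp background correction, which adds an offset to every spot. Some of these ways cannot change it and are no check: another floor for dim signals, another filter of miRNAs, the block and a trend in limma. With the spike-in controls as the reference it was -0.87. Without scaling the median of all miRNAs was itself shifted to -0.21, with the spike-ins to -0.18 and with the percentile over all probes to 0.16. Relative to that median miR-218-5p stood at -0.69 under each scaling by 1 factor per array, as it must by construction, at -0.68 after quantile normalization, at -0.71 after cyclic loess and at -0.46 with normexp. With any 1 array left out the difference ran from -0.67 to -0.55, the smallest being that without Akita kidney 2. In the authors' deposited value table, a normalized ratio per miRNA, the log2 ratios were -0.29, -0.56, -0.17 and -0.41 in Akita kidneys, against 0.17, 0.35, 0.32 and 0.39 in control kidneys, which also do not overlap.

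**Figure D2:**
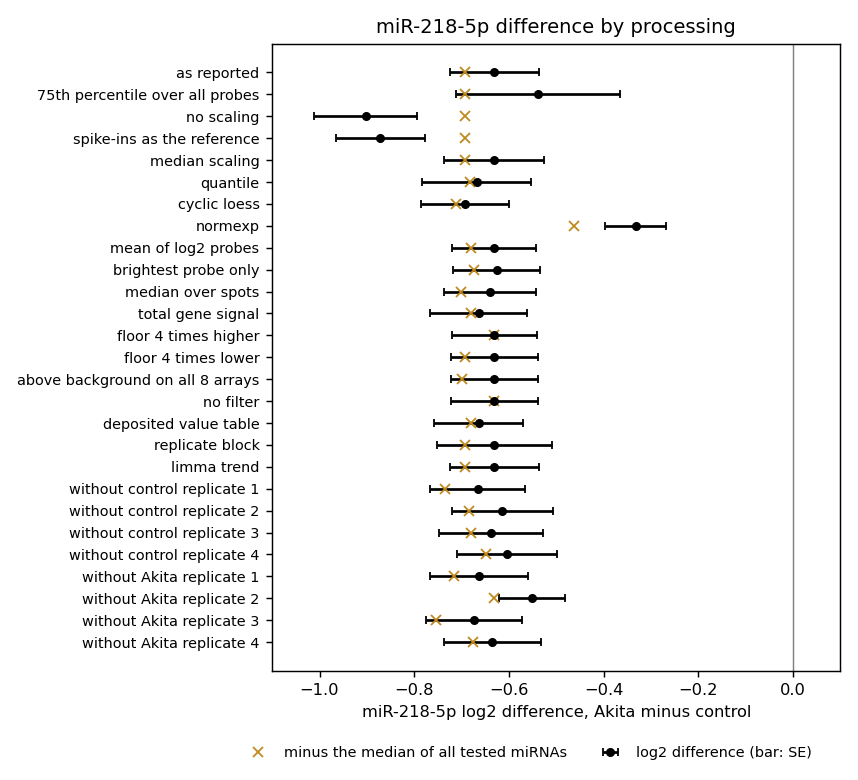
Log2 difference of miR-218-5p, Akita minus control (black points, bars are the SE), as reported and under each of 26 other ways of processing. Crosses show the same value minus the median of all miRNAs tested; all points lie below 0, from -0.90 to -0.33.

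One slide held all 8 arrays, with a single scan date, the Akita arrays in slide row 2 and the control arrays in slide row 1, and this placement and the group cannot be told apart. Each of the 4 slide columns held 1 Akita and 1 control array. Within the columns the log2 difference of miR-218-5p was -0.43, -0.92, -0.48 and -0.69. All 4 were negative, as in any pairing of these groups, since their values do not overlap. With the column as a block the difference was again -0.63, with a SE of 0.12. The block cannot move it, because each column holds 1 array of each group.

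Neither 3p arm gave a signal that would show which locus the 5p arm came from. The 99th percentile of the negative control spots, taken on each array, ran from 7.54 to 11.6. For miR-218-1-3p, the 4 probe means per array ran from -4.70 to 3.05 in Akita kidneys and from -3.03 to 2.29 in control kidneys, and 1 of 112 spots on Akita arrays and 2 of 109 on control arrays exceeded that array's percentile. For miR-218-2-3p, the probe means ran from -3.42 to 0.12 in Akita kidneys and from -3.59 to 6.13 in control kidneys, and 0 of 109 spots on Akita arrays and 5 of 113 on control arrays exceeded it. Negative values arise because the scanner software had subtracted a fitted background. No fold is given for an arm below background in both groups.

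The 2 highest probe means of the 3p arms belong to 1 short probe. On control arrays 1 and 2 the 11-base probe of miR-218-2-3p had means of 4.73 ± 5.73 and 6.13 ± 2.61 (SD over 8 spots each), and 5 and 6 of its 8 spots were marked as positive and significant by the software, a weaker criterion than well above background. Of its spots 0 were marked well above background, and the remaining 3 probes of the arm had no such majority on any array. By that weaker criterion miR-218-2-3p was present on 2 of 8 arrays and miR-218-1-3p on 0. In the deposited value table both arms have, on each array, the same value as most other miRNAs in it, so the table gives them no level of their own.

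**Figure D3:**
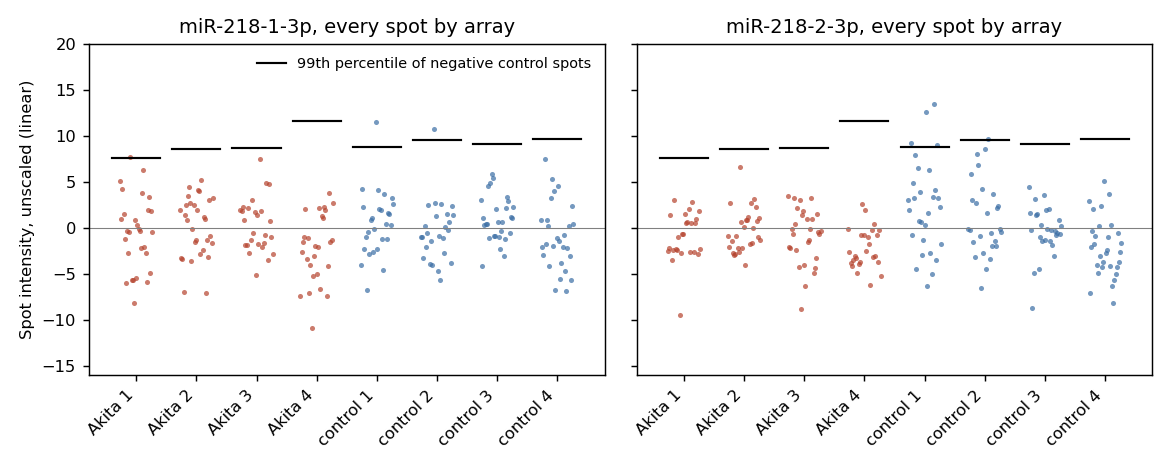
Intensity of every usable spot of miR-218-1-3p (left) and miR-218-2-3p (right) on each array, unscaled and linear, Akita in red and control in blue. Black bars mark the 99th percentile of the negative control spots of that array, from 7.54 to 11.6; 3 of 221 and 5 of 222 spots exceed it.

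Like most miRNAs on these arrays, most arms with a locus number in their name were above background on no array. The array carries 58 arms whose names number the locus before the arm, as in miR-218-1-3p. Of these, 51 (87.9%) were above background on no array, 2 on some and 5 on all 8, against 81.4% on no array among all 1881 miRNAs. The 5 present on all arrays were let-7a-1-3p, let-7f-1-3p, miR-24-2-5p, miR-30c-1-3p and miR-30c-2-3p, and miR-129-1-3p and miR-3070-2-3p were present on 7 and 3 arrays. For miR-30c, which like miR-218 has 1 guide from 2 loci, both locus-specific arms could therefore be read. MiR-30c-1-3p had a log2 difference of -0.28 ± 0.10 (SE) and miR-30c-2-3p of 0.06 ± 0.07, with neither called (adjusted p = 0.079 and 0.52, limma). The sign of miR-30c-2-3p turned without scaling (-0.21), with the spike-ins (-0.18) and with cyclic loess, and that of miR-30c-1-3p with normexp (0.11). MiR-30c-1-3p was called lower in 4 of the 26 alternatives (lowest adjusted p = 0.0071) and miR-30c-2-3p lower in 2, those without scaling or with spike-ins (lowest adjusted p = 0.024). Of the 7 arms, let-7f-1-3p was called higher in Akita (0.29 ± 0.08, adjusted p = 0.049), a call that was lost whichever array was left out, and miR-129-1-3p is described with the neuronal miRNAs.

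The tissue label was checked against 7 miRNAs typical of kidney, among them the tubular miR-192-5p and miR-194-5p and the nephron miRNA miR-204-5p. All 7 were above background on all 8 arrays, and 0 were called. Of 7 miRNAs of other organs, 0 were above background on all 4 arrays of a group. The neuronal and endocrine miR-124-3p and miR-375-3p, the cardiac miR-208a-3p and the muscle miRNAs miR-133a-3p and miR-206-3p were above background on no array. These are 5 of the 7. The rest of that list, miR-122-5p of liver and miR-1a-3p of muscle, was above background on some arrays, though in neither group on all 4.

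Slit and Robo proteins act on vessels, and miRNAs of the vessel wall gave no call in the direction of miR-218-5p. Of 8 listed, 6 were tested, 2 were called higher in Akita and 0 lower (8.42% and 6.32% among all miRNAs), and the median log2 difference was 0.13, beside 0.06 for all miRNAs. MiR-126a-3p, the main endothelial miRNA, stood at 12.39 ± 0.15 in Akita kidneys and 12.25 ± 0.06 in control kidneys (log2 difference 0.14 ± 0.09 SE, adjusted p = 0.28), and miR-143-3p of smooth muscle and mesangium at 9.74 ± 0.15 in Akita kidneys and 9.74 ± 0.14 in control kidneys. The difference of miR-126a-3p was below 0 under no scaling (-0.13) or spike-ins (-0.10), as was that of miR-143-3p (-0.27 and -0.24). The list then had 2 calls lower and 1 call lower, with 0 higher. MiR-221-3p and miR-222-3p, a clustered pair found in endothelium and smooth muscle, were higher by 0.33 ± 0.08 and 0.28 ± 0.07 (SE, adjusted p = 0.034 and 0.036, limma). With the slide column as a block both calls were lost (adjusted p = 0.106 and 0.172). Both stayed above 0 under every scaling, though at 0.06 and 0.01 without any, and the pair was called in full without Akita array 2 only. Without control array 1 or 2 the list had 1 call and without any other array 0.

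Mesenchymal miRNAs, made by fibroblasts and pericytes, gave no call. Of the 6 listed names 5 were on the array and 4 were tested, with log2 differences between 0.00 for miR-199a-3p and 0.18 for miR-214-3p and a median of 0.08. That median was below 0 under no scaling or with spike-ins as the reference.

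Of 16 neuronal miRNAs, the class in which miR-218 is best known, 8 were above background on no array and 5 were tested. MiR-129-1-3p, 1 of 2 locus-specific arms of miR-129, was higher in Akita. It had log2 values of 5.41, 5.31, 5.06 and 5.57 in Akita kidneys, against 4.86, 4.67, 4.57 and 4.60 in control kidneys, where it was above background on 3 arrays (log2 difference 0.66 ± 0.11 SE, adjusted p = 0.0067, limma). This call held whichever array was left out, though 1 control value lies at the floor under which signals were not ranked (4.57). MiR-9-3p was lower, at 4.84, 4.75, 5.24 and 4.57 in Akita kidneys, where it was above background on 1 array, against 5.12, 5.36, 5.40 and 5.44 in control kidneys (log2 difference -0.48 ± 0.14 SE, adjusted p = 0.049). Its groups overlapped, and of the 8 comparisons with 1 array left out, the call was kept in 2, those without Akita array 3 and without control array 1. In the authors' deposited value table its difference was -2.16, with no call. The call was kept in 6 of 25 alternatives, and the sign turned with normexp (0.077). Its other arm, miR-9-5p, had a log2 difference of -0.27 (adjusted p = 0.15), or 0.090 with normexp, and the list's median was 0.09. MiR-129-1-3p and miR-9-3p passed the filter only through the group in which each was higher, so their calls depend on that filter. With only miRNAs above background on all 8 arrays, 3 of the list were tested and 0 called.

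Most leukocyte miRNAs above background were lower in Akita, as miR-218-5p was. Of 10 listed, 7 were tested, 6 were called lower and 0 higher, beside 6.32% called lower among all miRNAs, and the median log2 difference was -0.55. Like the other lists, this one was written with earlier results of these data known, so its counts are a description and no test. The pan-leukocyte miR-142a-3p fell by 0.59 ± 0.09 (SE, adjusted p = 0.0051, limma), the myeloid miR-223-3p by 0.44 ± 0.11 (adjusted p = 0.034) and miR-146a-5p, a brake on innate immune signalling, by 1.26 ± 0.15 (adjusted p = 0.00073). No call was made for miR-150-5p of mature lymphocytes, at -0.35 ± 0.13 (adjusted p = 0.090), and its sign turned with normexp (0.079). The call of miR-223-3p was lost without Akita array 1, 3 or 4 and without control array 2 (adjusted p = 0.0750, 0.0768, 0.0574 and 0.0675). It was also lost with the slide column as a block (adjusted p = 0.061, limma). The log2 of the summed scaled signal of the 7 tested members ran from 9.84 to 10.05 in Akita kidneys and from 10.56 to 10.85 in control kidneys, without overlap. MiR-223-5p, miR-342-5p and miR-146b-5p of the list were above background on no array. The median was negative under all 26 other ways of processing, from -0.82 to -0.14. The 6 calls fell to 1 with the percentile over all probes or no filter, to 2 with normexp and to 3 with a floor 4 times higher. The list is no clean measure of leukocytes, since other cells make miR-146a-5p and miR-155-5p too, and its part in the difference of miR-218-5p was not tested.

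**Figure D4:**
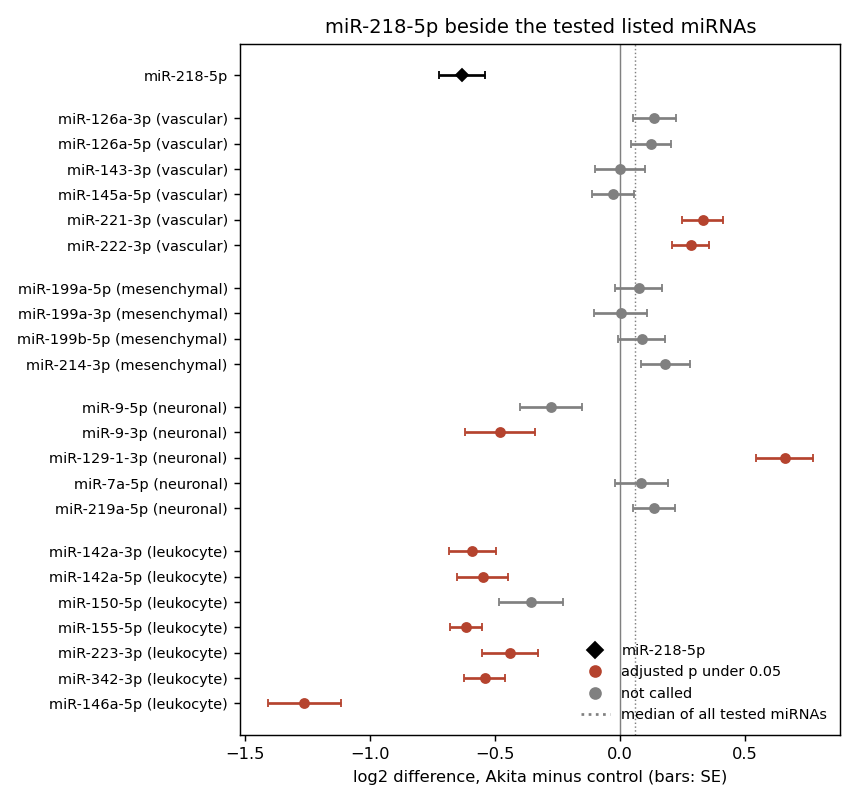
Log2 difference, Akita minus control, with its SE for miR-218-5p (black diamond) and for the tested members of the vascular, mesenchymal, neuronal and leukocyte lists; red points have an adjusted p under 0.05. Ranges were -0.03 to 0.33 (vascular), 0.00 to 0.18 (mesenchymal), -0.48 to 0.66 (neuronal) and -1.26 to -0.35 (leukocyte). MiR-218-5p stood at -0.63. It was picked for its fall and the lists were written with earlier results known, so nothing is read from its place among them.

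The miRNAs whose profile over the 8 arrays was most like that of miR-218-5p were found by the root mean square difference between log2 values, each miRNA centred on its own mean. Among 256 other miRNAs above background on all arrays this difference ran from 0.14 to 1.40, with a median of 0.39. The nearest was miR-155-5p, a miRNA of activated lymphocytes and macrophages (0.14), followed by miR-92a-3p of the miR-17-92 cluster (0.15), miR-181c-5p (0.16) and miR-181b-5p (0.16) of a family known from lymphocyte development, miR-15a-5p of a cell cycle family (0.19), and miR-342-3p, another leukocyte miRNA (0.19). In all 6, the Akita values lay below the control values, and the log2 differences ran from -0.61 to -0.28. Among the 285 miRNAs tested this held for 26 (9.12%). MiR-218-5p was picked for its fall, so a fall in the profiles nearest to it follows from how they were found, and nothing is read from it. Within the Akita group miR-218-5p was lowest on array 2, as were miR-92a-3p, miR-181b-5p and miR-15a-5p, while miR-155-5p was lowest on array 4 and miR-181c-5p and miR-342-3p on array 1. All values share the same 8 arrays and the same scaling, so the likeness is a description of these arrays.

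**Figure D5:**
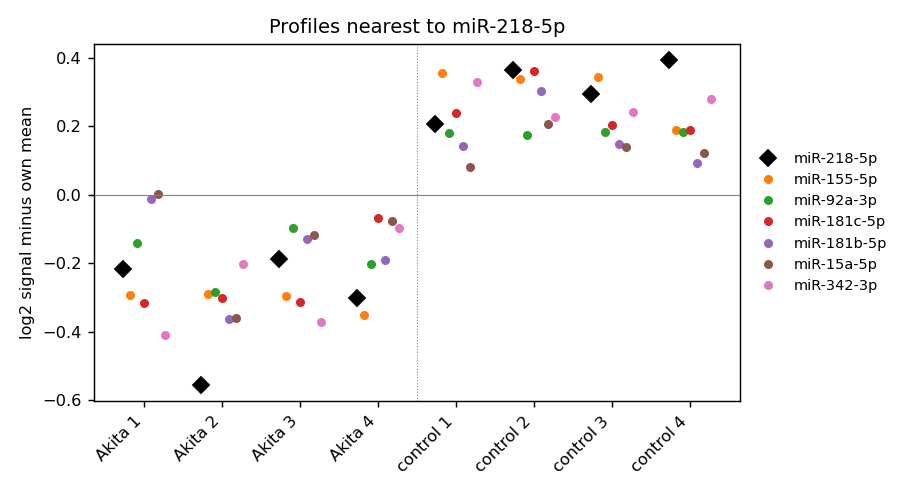
Log2 signal of miR-218-5p (black diamonds) and of the 6 miRNAs with the nearest profile, each minus its own mean over the 8 arrays. All 7 lie lower on the Akita arrays (left of the dotted line) than on the control arrays, and miR-218-5p is farthest down on Akita array 2.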

How the data were processed

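Total RNA of 8 kidney samples carried a Cy3 label and was read on Agilent mouse miRNA arrays in a single colour, per the labels' protocols. The deposited scanner files hold linear spot intensities from Agilent Feature Extraction 12.0.3.1, with a fitted spatial background subtracted and no normalization between arrays, per the file headers. The deposited value table holds a linear ratio per miRNA that the authors normalized; the steps were not given in the sources read, and it served as an alternative. Outlier spots (2.03% to 3.02% per array) were left out, and no spot was saturated. Spots were averaged per probe, arrays scaled to the 75th percentile of the 451 probes above background on all arrays, probes summed per miRNA, and sums raised to a floor of 23.8 (log2 4.57), which understates changes of dim miRNAs. The comparison used limma (version 3.58.1, R 4.3.3, two-sided, Benjamini-Hochberg over 285 miRNAs, threshold 0.05). Its fit was also run on simulated independent values with no scaling, filter or floor applied, so that run is no check of those steps. The number of arrays limits the precision. The members and lists were chosen with earlier results of these data known. Named are the 3 arms, the members of 4 lists, the 6 nearest profiles, seed sharers and the locus-numbered arms above background. Sequences are from RefSeq (GRCm38.p6), in which 1608 of 1881 array names were found.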

Additional observations from a re-analysis of the deposited data

Results flagged for a closer look

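Of 66 groups of 4 values checked among the named miRNAs, 7 held a value far from the other 3, where chance gives about 1 in 20 groups. No such value belonged to a miR-218 arm. MiR-155-5p, the miRNA nearest in profile to miR-218-5p, had one on array 4 of both groups. It stood lowest at 5.47 on Akita array 4, next to 5.52, and lowest at 6.01 on control array 4, next to 6.16. On Akita array 4, miR-199b-5p was highest at 8.49, next to 8.19, miR-214-3p was highest at 6.85, next to 6.58, and miR-181c-5p was highest at 5.55, next to 5.31. On control array 2, miR-143-3p was highest at 9.95, next to 9.68, and let-7a-1-3p was highest at 5.31, next to 4.94.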

How the results depend on the processing

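The difference of miR-218-5p kept its sign under all 26 alternatives, though the other floors and filters, the replicate block and the trend in limma cannot change it. It moved by more than the spread between arrays under no scaling (-0.90), spike-ins (-0.87) and normexp (-0.33), and it ran from -0.67 to -0.55 with 1 array left out. The 42 calls over all miRNAs became 14 with the percentile over all probes, 109 without scaling, 114 with the spike-ins, 64 with cyclic loess, 89 with normexp, 21 with the software's total gene signal, 9 with the floor 4 times higher, 6 with no filter on dim miRNAs, and 20 to 40 with 1 array left out (20 without Akita array 1, 22 without Akita array 3 or 4, 27 without control array 2, 23 without control array 3). Their split of 24 higher and 18 lower became 10 and 4 with the percentile over all probes, 81 and 8 with normexp, 7 and 107 with the spike-ins, and 5 and 104 under no scaling.

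The 2 vascular calls became 2 in the lower direction under no scaling, 1 in the lower direction under spike-ins, 1 with quantile scaling or the brightest probe, 0 with the percentile over all probes, total gene signal, the higher floor, no filter or the replicate block, and 0 to 2 with 1 array left out. The 0 mesenchymal calls became 1 under no scaling, spike-ins or normexp, and stayed at 0 with 1 array left out. The 2 neuronal calls became 1 with the percentile over all probes, median, quantile and cyclic loess scaling, the mean of log2 probes, the brightest probe, total gene signal, the lower floor, the value table and a trend in limma, 3 under no scaling or spike-ins (1 higher, 2 lower) and normexp (3 higher), 0 with the higher floor, no filter or only miRNAs above background on all 8 arrays, and 1 to 2 with 1 array left out. The 6 leukocyte calls became 1 with the percentile over all probes or no filter, 2 with normexp and 3 with the higher floor, and 5 to 6 with 1 array left out. The cause of these changes was not tested, except that the higher floor and the missing filter act on dim miRNAs by construction.

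Among differences called as reported or under the alternative, signs turned for miR-9-3p (0.077), miR-181c-5p (0.014) and miR-181b-5p (0.0086) with normexp, for miR-143-3p (-0.27), miR-199a-3p (-0.27) and miR-30c-2-3p (-0.21) without scaling, and for miR-199a-3p (-0.24) and miR-30c-2-3p (-0.18) with the spike-ins. Signs of several uncalled differences turned too, among them miR-150-5p (0.079), miR-9-5p (0.090) and miR-30c-1-3p (0.11) with normexp and miR-143-3p (-0.24) with the spike-ins. The replicate numbers equal the slide columns. Deviations of same-numbered arrays correlated between -0.35 and 0.34. With 4 arrays per group these values cannot decide whether the numbers pair the samples beyond the shared column. With the replicate block 25 miRNAs were called, 5 of them leukocyte and 2 neuronal. The difference of miR-218-5p was -0.63, which the block cannot move. Counting an arm of miR-218 as present by other rules on its spots left 8 of 24 arm and array pairs above background, or 10 by the weaker flag.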
